A study of Mus musculus with 9 samples.

Results

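Lipoprotein lipase (Lpl) and the genes that act on it were followed in mouse fibroblasts that received the nuclear receptor PPARγ by adenovirus. The members were taken by name: the lipase, its inhibitor Angptl4, the related secreted protein gene Angptl2, the capillary anchor Gpihbp1, the maturation factor Lmf1, its relative Lmf2, and the lipoprotein receptor gene Vldlr. The platform annotation paired 14 probe sets with 6 of these 7 genes, out of 18193 genes in all, and expression of Angptl2 was not analysed here. Total RNA was measured on 9 Affymetrix arrays, 3 in each of 3 groups. All cells were NIH-CAR, a single clone of NIH 3T3 fibroblasts that stably expresses the coxsackie-adenovirus receptor CARΔ1, at passage 12 and exposed to virus for 2 h. The empty-vector group received AdEmpty, a virus without insert, and then the vehicle DMSO. The full-length group received AdHA-PPARg2, which encodes HA-tagged PPARγ2, and then 1 µM rosiglitazone, a PPARγ agonist. The A/B-deleted group received AdHA-PPARgCDE, which encodes the HA-tagged receptor without its N-terminal A/B-domain, and then 1 µM rosiglitazone. No group had the agonist without a receptor virus, so receptor and agonist cannot be told apart against empty vector. The 2 receptor groups share agonist, passage and exposure time, and differ in the virus, which encodes the receptor with or without the A/B-domain. The title asks how gene-specific the role of that domain is.

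Lipoprotein lipase is made by adipocytes, muscle cells and other parenchymal cells and is secreted to the capillary wall, where it hydrolyses the triglycerides of circulating lipoproteins. The enzyme folds in the endoplasmic reticulum with the help of LMF1, is carried across the endothelium by GPIHBP1, and is inactivated by ANGPTL4. Both Lpl and Angptl4 are textbook target genes of PPARγ in fat tissue, so the same receptor can raise an enzyme and its inhibitor.

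All values are deposited log2 expression values, so a difference of 1 is a doubling. Means are given ± SD over 3 arrays, and differences with their standard error (SE) or 95% interval from limma. A gene counts as called, or as having risen or fallen, where its limma p, adjusted by Benjamini-Hochberg across the whole table, is under 0.05. Array medians ran from 6.68 to 6.90, and no detection calls were used, so low values cannot be separated from background. Pparg read 7.06 ± 0.10 in the empty-vector, 11.25 ± 0.84 in the full-length and 11.34 ± 0.63 in the A/B-deleted group (SD, n = 3), on a probe set that does not separate transgene from endogenous transcript. Between the receptor groups it differed by 0.09 (95% interval -0.83 to 1.01). These data hold no receptor protein, so equal amounts of the 2 receptors are not shown. All 9 fibroblast markers were measured, with mean levels from 10.59 (Pdgfrb) to 14.12 (Vim). Of the adipocyte markers 5 of 7 were measured and 0 were called in any comparison. Their mean level per array stayed between 6.04 and 6.16 with empty vector, 6.11 and 6.21 with the full-length, and 6.01 and 6.16 with the A/B-deleted receptor. The 8 endothelial markers, relevant because GPIHBP1 is made by capillary endothelium, averaged from 5.68 to 6.10 per array. Ribosomal 18S control probe sets averaged 7.59 to 8.67 on the 3 arrays numbered 3 and 10.51 to 12.44 on the other 6. In bulk RNA, more cells with a transcript and more transcript per cell cannot be told apart.

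Against empty vector with vehicle, Lpl and Angptl4 rose in both groups given receptor and rosiglitazone, and the other 4 measured members were not called. The same 2 of 6 members were called higher with the full-length receptor, where 0.5% of all genes were called higher, and with the A/B-deleted receptor, where 0.159% were (0.912% in either direction with the replicate number as a block). These 2 comparisons share the empty-vector arrays. Lpl rose 14.5-fold with the full-length and 5.80-fold with the A/B-deleted receptor, and Angptl4 rose 12.1-fold and 10.5-fold. The median difference over the 6 members was 0.26 with the full-length receptor, against 0.00 over all genes, and 0.16 with the A/B-deleted receptor, against -0.03. By size of rise Lpl ranked 3 and Angptl4 ranked 4 among all genes with the full-length receptor, and they ranked 7 and 3 with the A/B-deleted receptor.

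Lpl encodes the lipase itself. On its brighter probe set, 1415904_at, arrays 1, 2 and 3 read 7.71, 7.15 and 7.32 with empty vector. The full-length arrays read 11.40, 11.30 and 11.04. The A/B-deleted arrays read 10.25, 10.10 and 9.43. The 3 groups did not overlap: every full-length array lay above every A/B-deleted array, and every A/B-deleted array lay above every empty-vector array. The rise was 3.86 (SE 0.23, adjusted p = 0.000235) with the full-length receptor, with a 95% interval of the fold from 10.1 to 20.7. With the A/B-deleted receptor it was 2.54 (SE 0.23, adjusted p = 0.00182), a fold between 4.06 and 8.30. All receptor arrays lay above all empty-vector arrays in 4.52% of all genes with the full-length and in 3.86% with the A/B-deleted receptor.

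The second Lpl probe set, 1431056_a_at, gave the same order on a lower level. Its empty-vector arrays read 5.99, 5.75 and 6.35, its full-length arrays 9.16, 9.22 and 9.39, and its A/B-deleted arrays 8.06, 7.82 and 7.85. This probe set rose by 3.23 (SE 0.16, limma adjusted p = 9.48e-05) in the full-length and by 1.88 (SE 0.16, limma adjusted p = 0.00277) in the A/B-deleted group. These p-values were adjusted over the 34945 probe sets with 1 gene symbol. All 4 probe sets of Lpl and Angptl4 were called higher with each receptor in that fit, where 0.389% of probe sets were called higher with the full-length and 0.109% with the A/B-deleted receptor. In that fit the Angptl4 call on 1417130_s_at with the A/B-deleted receptor was lost without A/B-deleted array 1, 2 or 3 or empty-vector array 1 (limma adjusted p from 0.0551 to 0.0651). The empty-vector values of this Lpl probe set lay below the array medians, so its rise may rest on a level near background. Here too no array of one group reached those of another.

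Between the receptors Lpl was lower without the A/B-domain on every pair of arrays, but the difference did not pass the threshold over all genes. On 1415904_at it was -1.32 (SE 0.23, 95% interval -1.83 to -0.80), a 2.49-fold lower level, with an unadjusted limma p of 0.000238 and an adjusted p of 0.871. The differences at equal array numbers were -1.15, -1.19 and -1.61. On 1431056_a_at the difference was -1.35 (SE 0.16, 95% interval -1.71 to -0.98, adjusted p = 0.224), with -1.10, -1.40 and -1.54 at equal numbers. So both probe sets placed Lpl with the A/B-deleted receptor at 40.1% and 39.3% of its level with the full-length receptor, on the linear scale. No gene was called in this comparison, 0% of all genes, while 277 genes, 1.52%, had an unadjusted limma p under 0.05. Lpl ranked 4 of the 18193 genes by that p. Separation of the 2 receptor groups with the A/B-deleted arrays lower was seen in 3.14% of genes. With the replicate number as a block, which the pairing check allows for this comparison, the adjusted p was 0.215, and again 0% of genes were called.

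Angptl4 encodes the secreted protein that unfolds and inactivates the lipase. On probe set 1417130_s_at the empty-vector arrays read 9.90, 8.84 and 10.67, a wide spread (SD 0.92). The full-length arrays read 13.29, 13.20 and 13.68, and the A/B-deleted arrays 13.11, 13.03 and 13.46. Every receptor array lay above every empty-vector array, and the 2 receptor groups overlapped. In all 3 groups array 3 was the highest and array 2 the lowest. Array 3 was also the array with low 18S control signal in each group, and the part of this in the order was not tested. The rise was 3.59 (SE 0.38, adjusted p = 0.00325) with the full-length receptor, a fold between 6.67 and 21.8, and 3.40 (SE 0.38, adjusted p = 0.00737) with the A/B-deleted receptor, a fold between 5.83 and 19.1.

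On probe set 1453410_at Angptl4 read 4.11, 3.34 and 4.52 with empty vector, 7.47, 7.20 and 7.26 with the full-length, and 6.78, 6.80 and 6.99 with the A/B-deleted receptor. The rises were 3.32 (SE 0.25, adjusted p = 0.000735) and 2.87 (SE 0.25, adjusted p = 0.00277). The empty-vector values lay below the 10th percentile of the arrays, which was 5.16 to 5.29, so the size of these rises rests on a level that cannot be separated from background. On this probe set the receptor groups did not overlap, the A/B-deleted arrays being the lower ones.

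Between the receptors Angptl4 differed by -0.19 on 1417130_s_at (95% interval -1.05 to 0.66) and by -0.46 on 1453410_at (95% interval -1.03 to 0.12), neither called. These intervals include no difference and also a level 2.07-fold and 2.04-fold lower without the A/B-domain, so equal levels are not shown. With the replicate number as a block the 95% intervals were narrower, -0.84 to 0.45 and -0.98 to 0.07, and also included no difference. On the first probe set the difference at equal array numbers was of one sign, -0.18, -0.17 and -0.23. On the second it was also of one sign and larger, -0.69, -0.40 and -0.27.

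**Figure D1:**
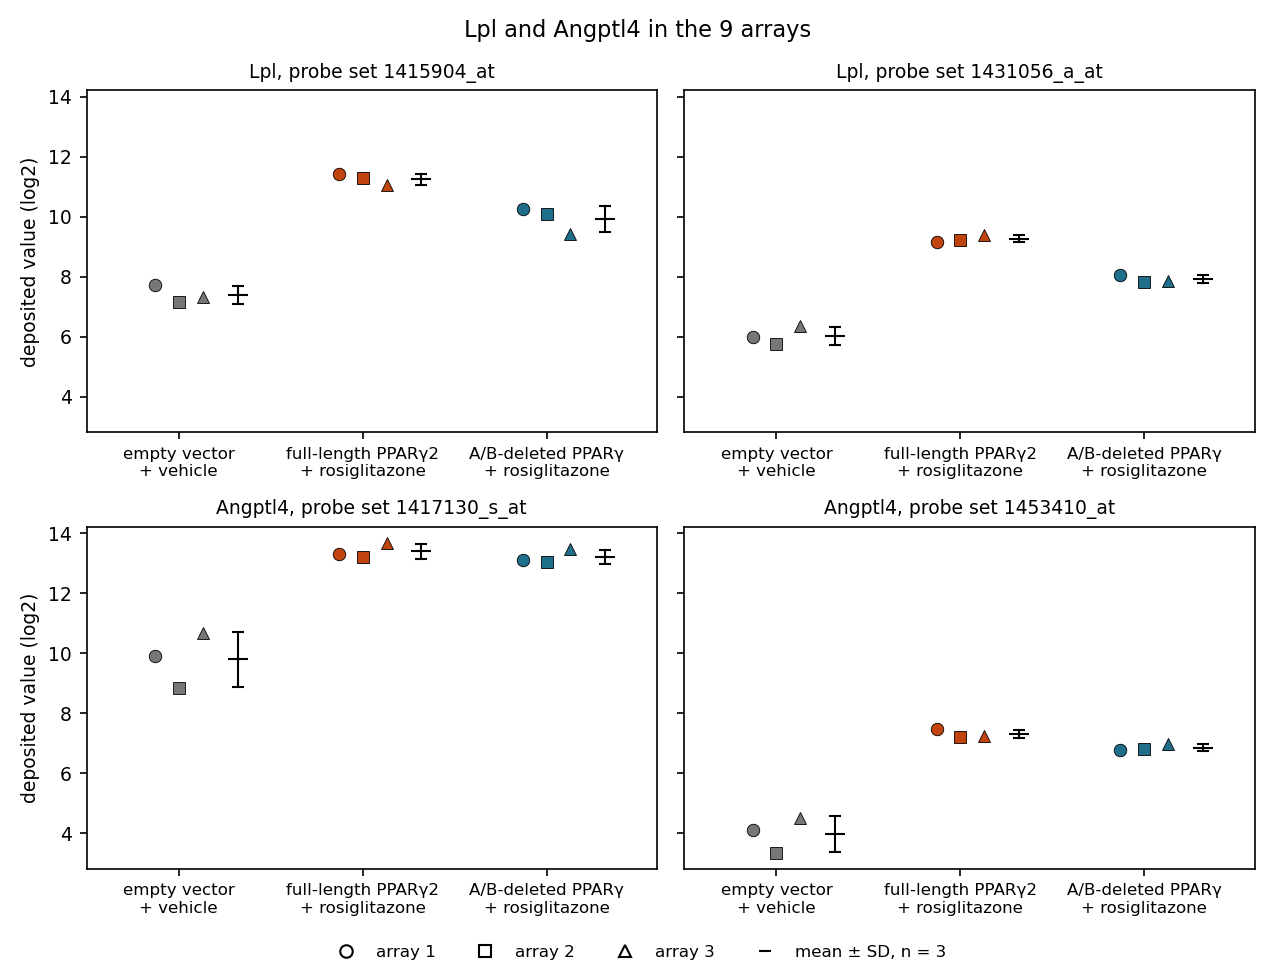
Deposited log2 value (vertical axis) of the 2 Lpl and 2 Angptl4 probe sets in each of the 9 arrays, by group (horizontal axis), with the mean and SD over 3 arrays as bars beside the points. On both Lpl probe sets the A/B-deleted arrays sit between the empty-vector and full-length arrays, and on Angptl4 1417130_s_at the receptor groups overlap between 13.20 and 13.46.

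On the log2 scale the rise of Lpl on 1415904_at with the A/B-deleted receptor was 65.8% of that with the full-length receptor. For Angptl4 on 1417130_s_at it was 94.6%. The other 2 probe sets, whose empty-vector levels were low, gave 58.3% for Lpl on 1431056_a_at and 86.3% for Angptl4 on 1453410_at. On the linear scale Angptl4 with the A/B-deleted receptor was at 87.4% (1417130_s_at) and 72.9% (1453410_at) of its full-length level. The Lpl value on 1415904_at minus the Angptl4 value on 1417130_s_at was taken within each array. A constant offset of a probe set cancels between groups in it, but an unequal response of probe sets does not. The Angptl4 receptor arrays read 13.03 to 13.68, where the highest value on any array was 14.82, and compression of high signals was not tested. Lpl minus Angptl4 was -1.89, -1.91 and -2.64 with the full-length and -2.86, -2.93 and -4.03 with the A/B-deleted receptor. The groups did not overlap. The mean difference was -1.12 (exact permutation test, two-sided, p = 0.1), and 0.1 is the smallest p that this unpaired test can give for 3 against 3 arrays. At equal array numbers it was -0.97, -1.02 and -1.39 (exact paired permutation test, two-sided, p = 0.25, the smallest that 3 pairs can give). Neither test can reach 0.05 here. With the mean of each gene's probe sets it was -1.01 (exact permutation test, two-sided, p = 0.1). In the empty-vector arrays the same quantity was -2.19, -1.69 and -3.35, and array 3 was the lowest of each group.

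Among the 91 genes called higher with the full-length receptor, the median difference between the receptors was -0.31. Of these genes 1 lay further below zero than Lpl, the droplet fusion gene Cidec at -1.96, named after its value was seen, and 61 lay below Angptl4. Those 91 genes were selected on the full-length arrays, which tilts this comparison toward negative values.

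**Figure D2:**
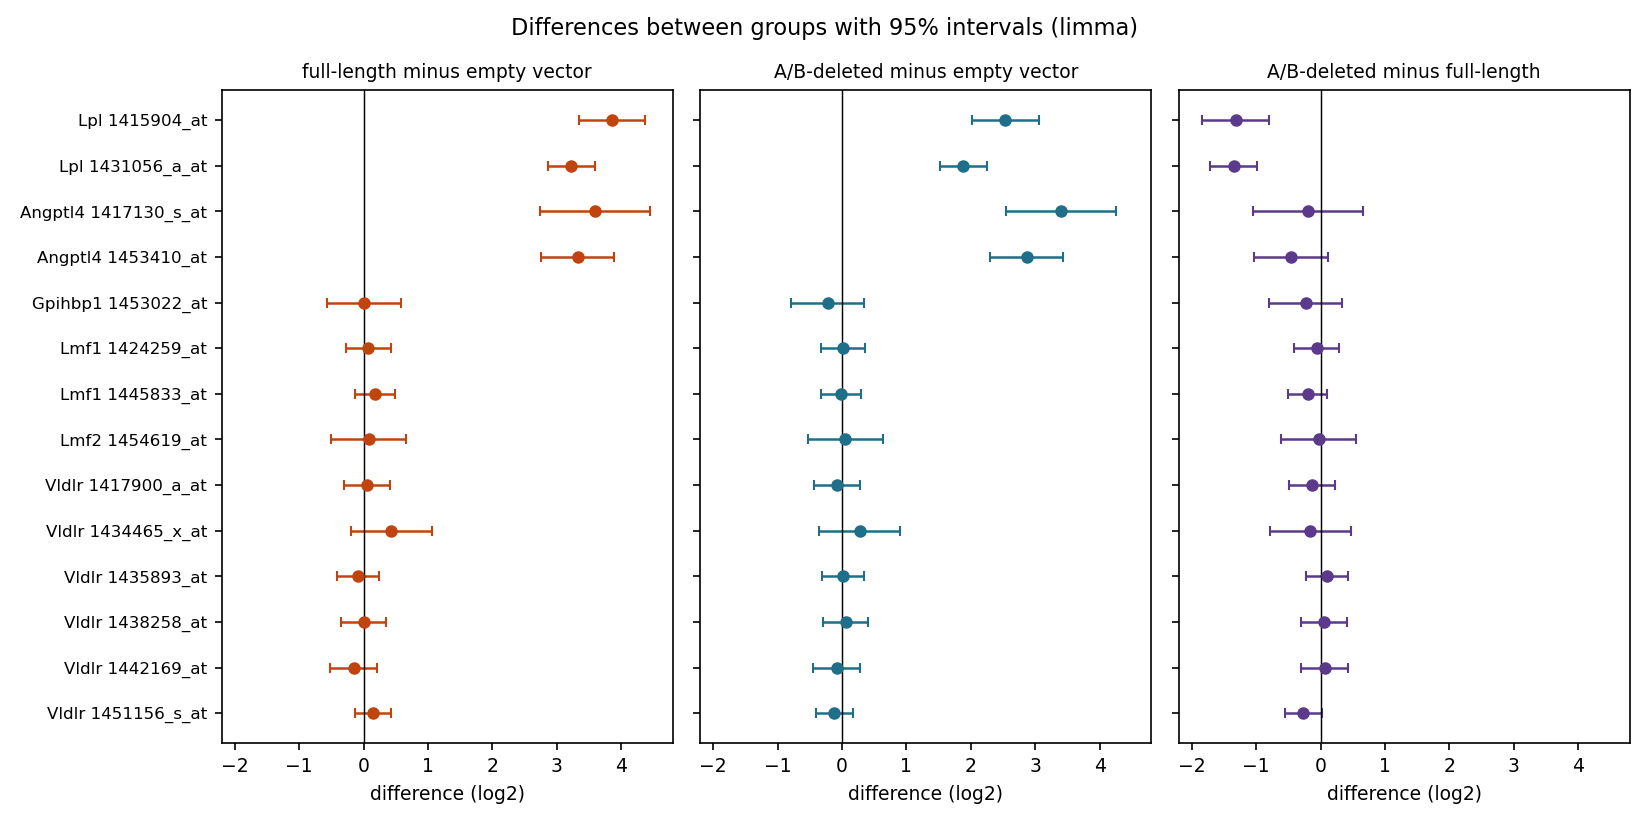
Difference between groups on the log2 scale (horizontal axis) with its 95% limma interval for all 14 probe sets, in 3 panels for the 3 comparisons. The 4 Lpl and Angptl4 probe sets lie between 1.88 and 3.86 above empty vector, the other 10 lie between -0.22 and 0.43, and between the receptors the 2 Lpl intervals alone do not include 0.

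The genes that fold, carry or complement the lipase were not called in any comparison. Gpihbp1 encodes the endothelial protein that binds the lipase and moves it into the capillary lumen. Its only probe set, 1453022_at, read 7.02, 6.44 and 6.24 with empty vector, 6.13, 6.60 and 7.00 with the full-length, and 6.51, 6.13 and 6.39 with the A/B-deleted receptor. The groups overlapped and the level lay near the array medians. The difference was 0.01 (95% interval -0.56 to 0.57) with the full-length and -0.22 (-0.79 to 0.34) with the A/B-deleted receptor.

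Lmf1 encodes the membrane protein of the endoplasmic reticulum that newly made lipase needs for folding. On probe set 1424259_at it read 7.08, 7.45 and 7.64 with empty vector, 7.40, 7.56 and 7.44 with the full-length, and 7.24, 7.46 and 7.52 with the A/B-deleted receptor. The differences from empty vector were 0.08 (95% interval -0.27 to 0.42) and 0.02 (-0.33 to 0.36). Its second probe set, 1445833_at, ran from 6.37 to 6.85 over the 9 arrays and differed by 0.18 and -0.02. The groups overlapped on both. The interval of 1424259_at leaves out a rise of the size seen in the lipase.

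Lmf2 encodes a relative of LMF1. It read 9.27, 9.40 and 9.98 with empty vector, 9.38, 9.43 and 10.08 with the full-length, and 9.40, 9.42 and 10.00 with the A/B-deleted receptor. Array 3 was highest in each group, by more than any difference between groups, and these are the arrays with low 18S signal. The part of those arrays in Lmf2 was not tested further. The differences were 0.08 (SE 0.26) and 0.05 (SE 0.26), and with the replicate number as a block their SE was 0.07 and neither was called.

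**Figure D3:**
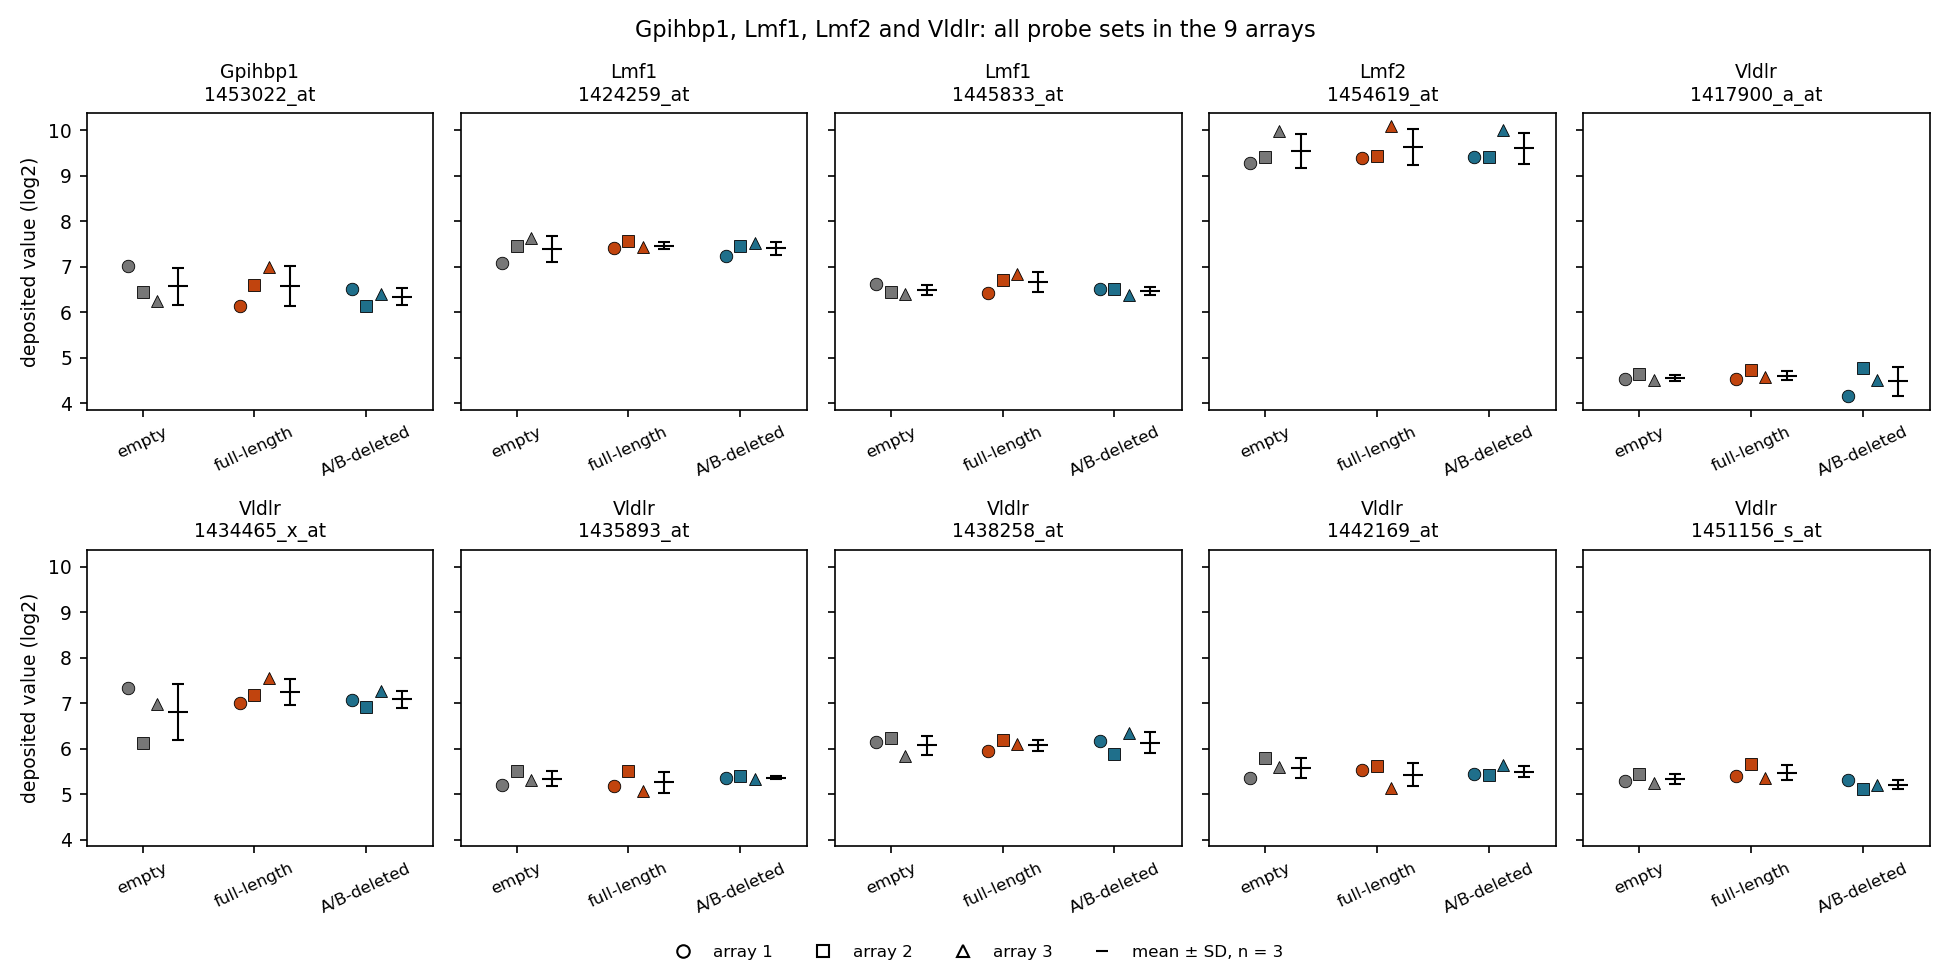
Deposited log2 value (vertical axis) of the 10 probe sets of Gpihbp1, Lmf1, Lmf2 and Vldlr in the 9 arrays, by group (horizontal axis), with the mean and SD over 3 arrays. The groups overlap against empty vector on each probe set, and array 3 of Lmf2 reads 9.98 to 10.08 in each group.

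Vldlr encodes a receptor that binds triglyceride-rich lipoproteins and assists their hydrolysis by the lipase. It had 6 probe sets, and none was called. The one with the highest mean, 1434465_x_at, read 7.34, 6.14 and 6.97 with empty vector, 7.01, 7.17 and 7.56 with the full-length, and 7.08, 6.91 and 7.28 with the A/B-deleted receptor. Its differences from empty vector, 0.43 (95% interval -0.20 to 1.06) and 0.27 (-0.36 to 0.90), were the largest among the uncalled members, with overlapping groups and empty-vector array 2 well below the rest. The suffix x_at marks probes that may also bind unrelated transcripts. The other 5 probe sets had differences from -0.15 to 0.15 with the full-length and from -0.12 to 0.06 with the A/B-deleted receptor.

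On 1451156_s_at the A/B-deleted arrays of Vldlr, at 5.32, 5.11 and 5.20, lay below the full-length arrays, at 5.41, 5.67 and 5.36. That difference was -0.27 (SE 0.13, adjusted p = 1.00). It was 1 of 4 member probe sets, of 14, without overlap between the receptors, the others being both of Lpl and 1453410_at of Angptl4, where 5.91% of all probe sets had none. The probe sets of a gene share their transcript and are not separate observations.

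A wider list of 66 genes of lipoprotein handling was set beside the members: other lipases and ANGPTL proteins, apolipoproteins, folding partners, heparan sulfate genes, proprotein convertases, receptors of the LDL receptor family, reelin partners and ANGPTL receptors. Of these, 60 were measured and 0 were called by limma in any of the 3 comparisons. An unadjusted p under 0.05 was reached by 2 with the full-length receptor, where 6.19% of all genes reached it, by 0 with the A/B-deleted receptor, where 3.79% did, and by 1 between the receptors. The median differences were 0.00, -0.06 and -0.04, against 0.00, -0.03 and -0.01 over all genes. Many listed genes, among them Apoe, Apoc3, Angptl8, Liph and Lrp5, had group means below the array medians, where signal may be background. For such genes the lack of a call does not show a lack of response.

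In each sublist the largest difference with the full-length receptor, on the brightest probe set of each gene, was small beside those of Lpl and Angptl4. It was 0.25 for Lipe, hormone-sensitive lipase, which acts inside the cell. It was 0.13 for Angptl8, a secreted protein that takes part in inhibiting the lipase, and 0.14 for Apoe, a ligand of lipoprotein receptors. Pdia3, a disulfide isomerase of the endoplasmic reticulum, was at -0.33, and the convertase gene Furin, whose product can cleave the lipase and ANGPTL proteins, at -0.16. Less bright probe sets went further in some sublists, to 0.25 for Angptl1, to 0.19 for the apolipoprotein gene Apoa4 and to 0.29 for the reelin partner Dab1.

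The heparan sulfate proteoglycan gene Sdc4 was at -0.73, and Reln, a ligand of the VLDL receptor, at 0.08. Lrp5, a coreceptor of Wnt ligands in the LDL receptor family, was at 0.68 (SE 0.21, adjusted p = 0.381), and the integrin gene Itgb1 at -0.37 (SE 0.15, adjusted p = 0.733). Lrp5 read 5.82 ± 0.25 in the empty-vector, 6.51 ± 0.39 in the full-length and 6.02 ± 0.23 in the A/B-deleted group (SD, n = 3). With the replicate number as a block, 3.63% of genes were called in either direction. There Lrp5 was called higher (limma adjusted p = 0.0159) and Itgb1 lower (limma adjusted p = 0.0407). They were the only calls among the 60 measured genes, a share near that over all genes. Lrp5 has 1 probe set, its full-length and empty-vector arrays overlapped, and its group means lay below the array medians. Over the 6 probe sets of Itgb1 the difference without the block ran from -0.38 to 0.17. The replicate block pairs full-length and empty-vector arrays of equal number, though their deviations correlated at only -0.121 to 0.631.

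**Figure D4:**
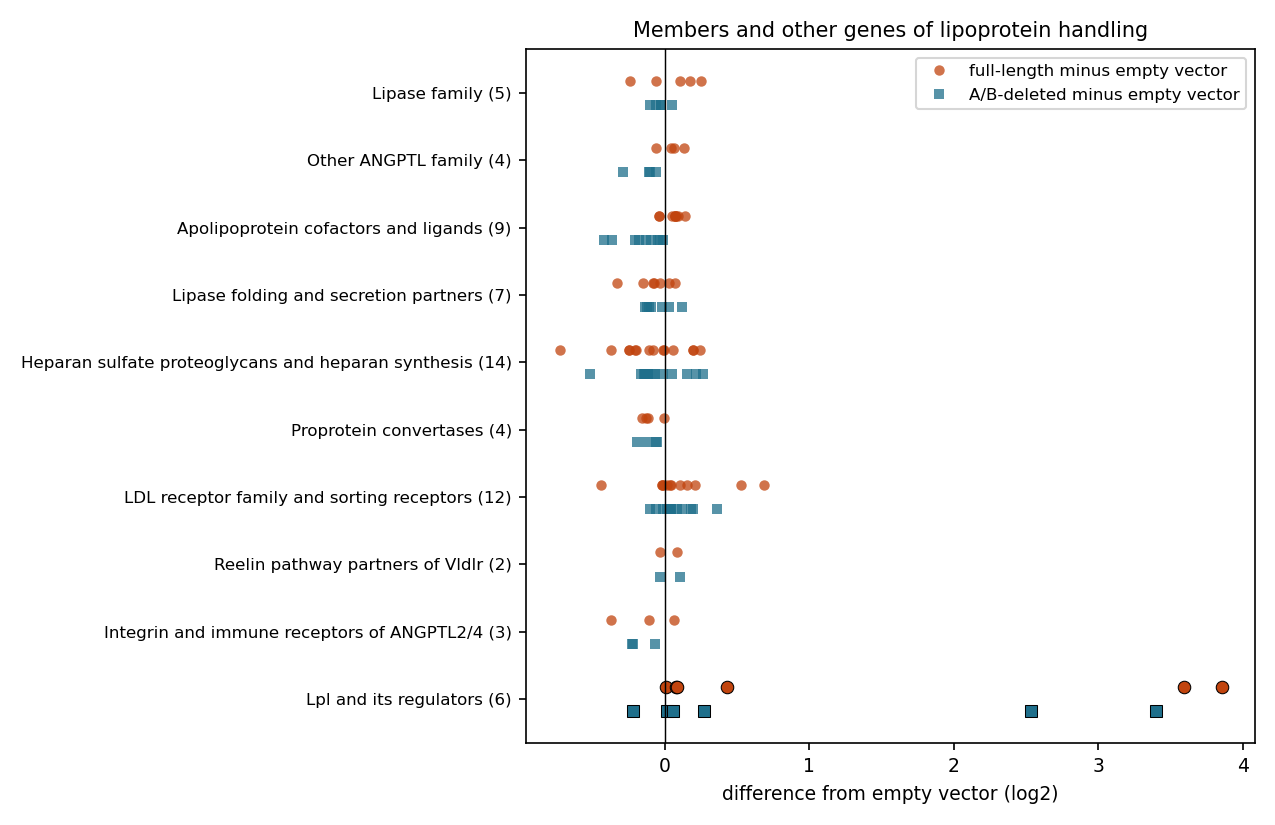
Difference from empty vector on the log2 scale (horizontal axis) for each measured gene of the 9 sublists of lipoprotein handling and for the 6 members, 1 point per gene and receptor, with the number of genes in brackets. The listed genes lie between -0.73 and 0.68, and Lpl and Angptl4 lie between 2.54 and 3.86.

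The genes whose values over the 9 arrays ran closest to those of Lpl were found by the root mean square difference after each gene's empty-vector mean was subtracted, a measure that depends on the size of the response. The 5 nearest were the desmosomal gene Pkp2 (0.573), the glutathione transferase family gene Mgst1 (0.575), the adaptor gene Kank3 (0.696), Angptl4 (0.755) and the lipid droplet coat gene Plin2 (0.793). The 5 nearest to Angptl4 were Kank3 (0.502), Plin2 (0.525), Pkp2 (0.565), Lpl (0.755) and Mgst1 (0.789). The lipase and its inhibitor were thus each other's number 4. Between the receptors Mgst1 differed by -0.89, Kank3 by -0.67, Pkp2 by -0.31 and Plin2 by -0.18, none called, beside -1.32 for Lpl and -0.19 for Angptl4.

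RefSeq promoter windows of GRCm38.p6, each of 300 bases around a start and mostly upstream of it, were matched for 4 of the 7 members, Angptl2, Lmf1, Lmf2 and Vldlr. Lpl, Angptl4 and Gpihbp1 had no entry. PPARγ binds with its partner RXR to a pair of AGGTCA motifs in the same direction, separated by 1 base. The single motif AGGTCA was in none of the 5 windows of these 4 genes on either strand, and in 16.3% of the 32851 windows of the table. The closest match to the full element had 4 mismatches in 4 of the windows, a closeness that 79.8% of all windows reached, and 5 in the other. No match says only that these letters are not in these windows.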

How the data were processed

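Probe-set values were used as deposited: the authors' log2 expression values, for which the submitters' processing notes list RMA, affy and R 2.5.0. The log base was read from the values. In the array with the fewest, 99.9% of the antilogs lie on a grid of 0.01, to within 0.01 of a step, and the lowest value is 0, so the summary method could not be checked. Groups and replicate numbers came from the sample titles. Names came from GEO's platform annotation. Probe sets with 1 symbol (34945, controls excluded) were kept, and the brightest of a gene on average stood for it, which gave 18193 genes. Differences were tested with limma 3.58.1 in R 4.3.3 (lmFit, contrasts, eBayes, two-sided) in 1 fit of 3 group means over all genes. It was repeated over all probe sets for the members' other probe sets. There is no read depth, and 3 arrays per group limit the precision. The p-values reflect only how far arrays of this 1 line differ, which may be technical. The fit was also run on simulated arrays that were independent, so this run lacks the correlation between arrays of equal number given below.

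Members and lists were chosen with earlier results of these data known. Every member was named, as were pathway genes called in any comparison, the largest difference of each sublist, and the 5 nearest genes to Lpl and Angptl4. Deviations of arrays with equal numbers correlated at 0.520 to 0.708 between the A/B-deleted and empty-vector groups, at 0.297 to 0.531 between the receptors, and at -0.121 to 0.631 between the full-length and empty-vector groups. These correlations were taken to allow pairing of equal numbers in the first 2 comparisons only. The replicate block was also run for the full-length against the empty-vector group, and its results there lack that support. The alternatives were a replicate block, the compared arrays only, the mean of probe sets, median subtraction, quantile normalization, a filter on low values, a trended robust prior, and leaving out arrays.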

Additional observations from a re-analysis of the deposited data

How the results depend on the processing

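Under all alternatives run, 2 members were called with each receptor against empty vector and 0 between the receptors. The rise of Lpl stayed between 3.54 and 4.01 with the full-length and between 2.21 and 2.79 with the A/B-deleted receptor, and its difference between the receptors between -1.48 and -1.07 (adjusted p from 0.186 to 1.00). Angptl4 stayed between 3.11 and 4.03, and between 2.92 and 3.83. In the fit over all probe sets its call on 1417130_s_at with the A/B-deleted receptor was lost without A/B-deleted replicate 1, 2 or 3 or empty-vector replicate 1, at 3.27 to 3.48 (adjusted p from 0.0551 to 0.0651). The Lpl minus Angptl4 difference ran from -1.20 to -0.99 with 1 replicate number left out. An exact paired test of it, chosen after seeing the data and using the replicate block, gave -1.12 (exact permutation p = 0.25). The other 4 measured members were not called under any alternative run.

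Of all genes, 119 were called with the full-length receptor, 661 with the replicate block and 67 with the compared arrays only. The A/B-deleted receptor had 31 against empty vector, 166 with the block, 20 with the compared arrays only and 55 without the 3 arrays numbered 3. Between the receptors 0 were called, and 1 after quantile normalization or the filter on low values. Without single arrays these counts ran from 57 to 114, from 17 to 34 and from 0 to 1. The lowest were 57, 62, 69 and 71 for the full-length receptor, without full-length replicate 2, empty-vector replicates 2 and 1 and full-length replicate 1, and 17 or 19 for the A/B-deleted receptor, without replicate 1 or 2 of either group compared. The 1 call between the receptors came without full-length replicate 3. The replicate block changed no member's call. Signals near background limit what can be said of Gpihbp1, Vldlr, and the empty-vector levels of Lpl on 1431056_a_at and Angptl4 on 1453410_at. The same holds for many genes of the wider list of lipoprotein handling.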
